A study of Mus musculus with 16 samples.

Results

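The insulin-like growth factor (IGF) genes described here are the ligands Igf1 and Igf2, the receptors Igf1r and Igf2r, and the binding proteins Igfbp2, Igfbp3, Igfbp4, Igfbp5, Igfbp6 and Igfbp7. They were chosen by symbol: every probe set that names 1 of these 10 genes and no other gene was taken, which gave 28 of the 34945 single-gene probe sets on the array, for 10 of 18193 genes. RNA of mouse embryonic fibroblasts (MEF), connective tissue cells grown from mouse embryos, was measured on 16 Affymetrix arrays of 4 groups with 4 culture plates each. The groups were CHOP-/- cells exposed for 8 hours to 1 uM MG132, CHOP-/- cells without it, WT (CHOP+/+) cells with the same MG132 exposure, and untreated WT cells. MG132 blocks the proteasome, and CHOP, the product of Ddit3, is a stress-induced transcription factor. The title of the series gives as its aim the genes that depend on CHOP when the proteasome is inhibited. All plates were grown in medium with fetal bovine serum, itself a source of IGFs. For the untreated plates the treatment field says none while the description names DMSO, so a solvent effect within the MG132 comparisons cannot be told apart from that of MG132. Nothing in the labels states how many embryos or cell lines stand behind a genotype, so a difference between genotypes and a difference between the cell isolations cannot be told apart, and the p-values measure the spread between plates.

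IGF1 and IGF2 are secreted growth factors that signal through the receptor tyrosine kinase IGF1R, whose kinase activates the IRS proteins and then the PI3K-AKT-mTOR route towards growth and survival. IGF2R, the cation-independent mannose 6-phosphate receptor, takes up IGF2 for breakdown in lysosomes and also sorts lysosomal enzymes. The classical binding proteins, IGFBP1 to IGFBP6, hold IGFs outside the cell with high affinity and are cut by dedicated proteases, whereas IGFBP7 binds IGFs only weakly; fibroblasts are a well-known source of several of them.

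A signal below is the MAS5 intensity of a probe set on 1 array, in the arbitrary units to which each array was scaled, and a fold change is the difference of log2(signal + 16) with its standard error (SE), from limma with Benjamini-Hochberg (BH) adjustment over the 11443 genes tested. "Rose", "fell", "higher" and "lower" are used for adjusted p under 0.05. A gene was tested on its brightest probe set when that lay above the array's median on at least 4 arrays. The arrays' medians lay between 90.11 and 113.4, and that range serves as a mark for low signals, since no detection calls were used here. 9 of the 10 genes passed this filter and Igfbp5 did not. Igf1, Igfbp2 and Igfbp3 passed it through the CHOP-/- arrays, so a genotype difference in them was partly a condition of being tested. As the cells were measured in bulk, fewer cells of a kind and less RNA per cell cannot be told apart.

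The targeted gene was lower in CHOP-/- cells. The Ddit3 signal averaged 396 ± 38.9 with MG132 and 368 ± 24.0 without it in CHOP-/- cells, against 7724 ± 587 with MG132 and 1017 ± 101 without it in WT cells (SD, n = 4 each). It rose with MG132 in WT cells (log2 fold change 2.91, limma adjusted p = 2.50e-16) and did not pass in CHOP-/- cells (0.10, adjusted p = 0.328). The sources used here do not tell whether the probe set lies inside the deleted stretch. Arrays of a group correlated at 0.9851 to 0.9915. Of 14 fibroblast markers, 12 or 13 lay above the array median on every array of each group, and Lum lay below it on all 16. Their summed signal spanned 119300 to 125200 with MG132 and 160000 to 175500 without in CHOP-/- cells, against 145000 to 160200 and 162700 to 189700 in WT cells. Single markers differed between the genotypes: Thy1 averaged 2074 with and 2727 without MG132 in CHOP-/- cells, against 273.9 and 227.5 in WT cells, and Pdgfra 143.2 and 118.3 against 2510 and 2351. The summed signal of the 7 macrophage and leukocyte markers was 2213 to 2434 with MG132 and 1472 to 1727 without in CHOP-/- cells, against 841.2 to 1101 and 753.5 to 897 in WT cells. Most of it in CHOP-/- cells was Cd14, at 1736 and 1054 against 264 and 310.5 in WT cells. Of the 3 markers tested, Cd14 was higher in CHOP-/- cells with and without MG132, Cd68 was lower with MG132 (-0.78, limma adjusted p = 0.00147) and Csf1r passed neither comparison. The 6 neural markers summed to 2336 to 2823 and 1844 to 2234 in CHOP-/- cells, against 5060 to 5780 and 5350 to 6267 in WT cells. Sox2, at 114.3 and 184.3 against 1588 and 1775, and Map2, at 461.1 and 346.3 against 2456 and 2417, were lower in CHOP-/- cells, and untreated Tubb3 was lower too (-1.01, limma adjusted p = 5.87e-05). With MG132, Tubb3 (0.65, limma adjusted p = 0.00333) and Nes (0.56, limma adjusted p = 0.0349) were higher in CHOP-/- cells, which gave 2 neural markers higher and 2 lower, against 0 higher and 3 lower in untreated cells. Ptprc, Itgam and Lyz2 of macrophages, Pecam1, Cdh5, Tek and Tie1 of endothelium and Alb, Ttr and Apoa1 of liver lay below the array median on all 16 arrays. In the same endothelium and liver lists, Eng lay above it on 16 arrays, Kdr on 6 and Afp on 11. Afp averaged 404.1 with MG132 and 122.8 without in CHOP-/- cells, against 240 and 4.722 in WT cells. Epithelial markers summed to 643.8 to 798.7 and 307.7 to 496.2 in CHOP-/- cells, against 928 to 1262 and 325.2 to 544.9 in WT cells. Fat cell markers summed to 487.8 to 600.9 and 586.6 to 710.3, against 1191 to 1333 and 1100 to 1177. Of the 4 tested, 1 was higher and 3 lower in CHOP-/- cells with MG132, against 1 higher and 2 lower without it. Pparg averaged 211.2 and 217.8 in CHOP-/- cells, against 684.4 and 731.3 in WT cells. Lpl went the other way, at 113.2 and 224.9 against 18.94 and 19.08. The part of these differences in the results below was not tested.

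Untreated cells of the 2 genotypes differed in every one of the 9 tested genes, 6 higher and 3 lower in CHOP-/- cells, and the 4 arrays of one genotype did not overlap the 4 of the other in any of them. Across all tested genes 55.4% passed the same comparison, 28.6% higher and 26.9% lower, and 49.6% did not overlap. The median fold change of the 9 was 1.44, against 0.01 over all tested genes, and the median of its absolute size was 2.26, against 0.27. The higher genes were both ligands, Igf2r, Igfbp2, Igfbp3 and Igfbp7; the lower ones were Igf1r, Igfbp4 and Igfbp6. These counts are a description, since the filter favoured a difference in 3 of the genes.

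**Figure D1:**
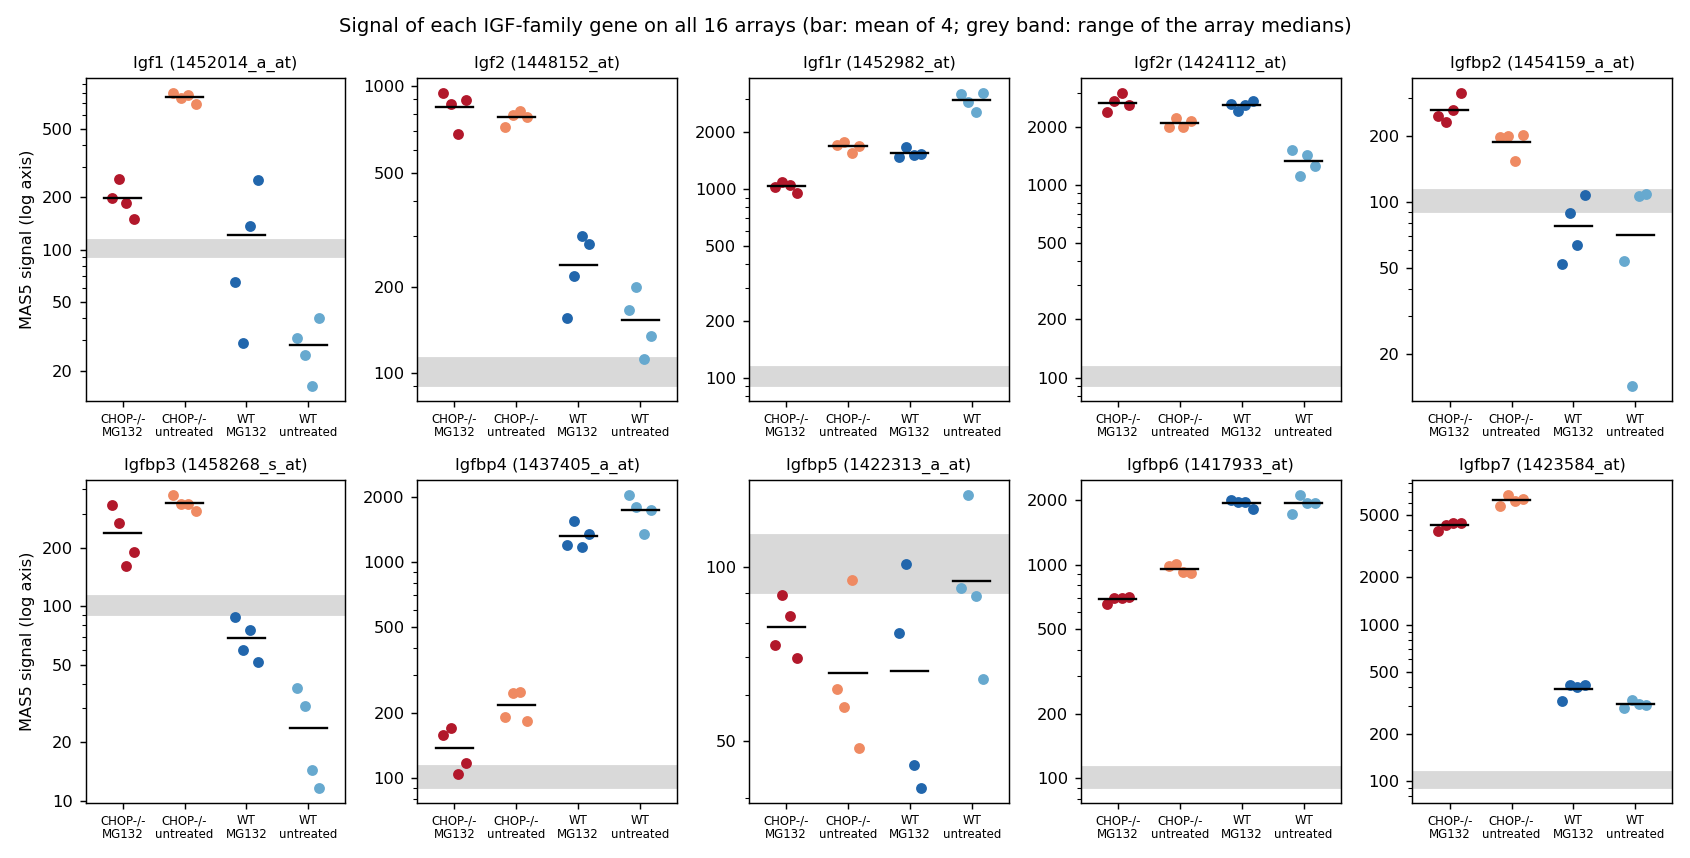
MAS5 signal (log axis, its range set per panel) of the probe set that represents each gene, 1 point per array and 4 arrays per group; the bar is the mean and the grey band the range of the 16 array medians, 90.11 to 113.4. CHOP-/- points lie apart from WT points in untreated cells in each panel except Igfbp5, with Igf1, Igf2, Igf2r, Igfbp2, Igfbp3 and Igfbp7 higher and Igfbp4, Igfbp6 and Igf1r lower.

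With MG132 present in both genotypes, 5 of the 9 tested genes were higher and 3 lower in CHOP-/- cells, and 7 did not overlap, while 58.7% of all tested genes passed (30.7% higher, 28% lower) and 53.4% did not overlap. Igf2r was the 1 that did not pass, and Igf1 and Igf2r overlapped. The median of the 9 was 0.93, against 0.02 over all tested genes.

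In CHOP-/- cells MG132 was followed by falls in 5 of the 9 genes, Igf1, Igf1r, Igfbp4, Igfbp6 and Igfbp7, and a rise in Igf2r; 62.4% of all tested genes passed (25.7% higher, 36.7% lower). 7 of the 9 did not overlap, against 58.4% of all tested genes, and the median was -0.53, against -0.07 over all. In WT cells 5 rose, Igf1, Igf2, Igf2r, Igfbp3 and Igfbp7, and Igf1r and Igfbp4 fell, while 64% of all tested genes passed (27.2% higher, 36.9% lower). 3 of the 9 did not overlap (Igf1r, Igf2r and Igfbp3), against 56.6% of all tested genes, and the median was 0.30, against -0.07. The shares of these genes that passed were 66.7% in CHOP-/- cells and 77.8% in WT cells, near the backgrounds of 62.4% and 64%.

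The responses of the genotypes differed in 5 of the 9 genes, Igf1, Igf2r, Igfbp3, Igfbp6 and Igfbp7, each with a lower response in CHOP-/- cells, and in 28.3% of all tested genes (14.2% higher, 14.1% lower). The median difference was -0.47, against -0.00 over all tested genes. The 5 comparisons draw on the same 4 groups, so an array with a deviant value enters several of them: the untreated groups are the base of both the response and the untreated genotype difference.

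**Figure D2:**
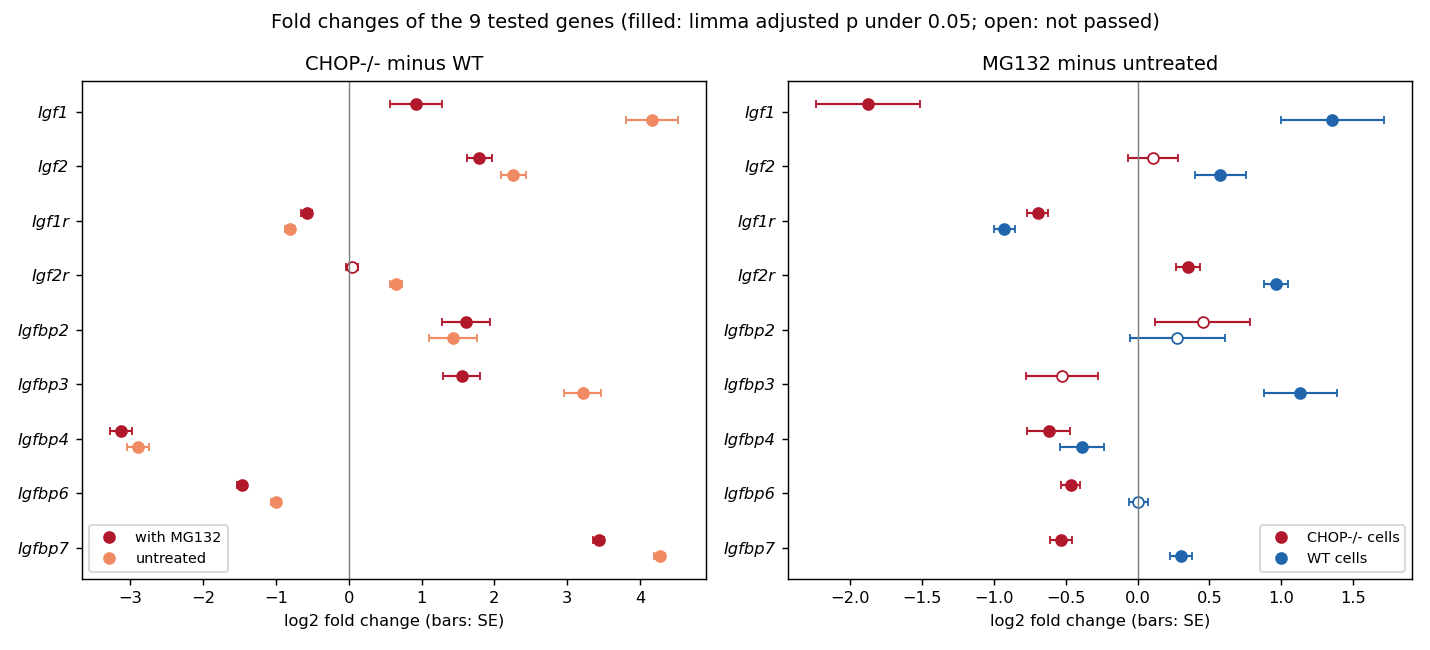
Log2 fold change (limma, bars are the SE) of the 9 tested genes, CHOP-/- minus WT on the left (with MG132 and untreated) and MG132 minus untreated on the right (CHOP-/- and WT cells); filled points have an adjusted p under 0.05. Igfbp7 and Igf1 stand at the right of the untreated genotype difference (4.27 and 4.16) and Igfbp4 at its left (-2.89), while the responses of Igf1, Igfbp3 and Igfbp7 lie on opposite sides of 0 in the 2 genotypes.

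Without a filter, the 28 probe sets divided as follows. In untreated cells 11 were higher and 11 lower in CHOP-/- cells, against 15.8% and 14.7% of all 34945 single-gene probe sets. With MG132, 9 were higher and 9 lower, against 16.3% and 17.3%. In the CHOP-/- response 1 rose and 11 fell, against 14.7% and 19.5%, and in the WT response 6 rose and 5 fell, against 16.9% and 19.1%. The difference between the responses was higher in 0 and lower in 9, against 6.19% and 7.25%. Probe sets of a gene are not independent, and genes with many of them weigh more in these counts.

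Promoters are printed for 3 genes, the ligand and the binding protein with the largest positive difference between untreated genotypes (Igf1 and Igfbp7) and the binding protein with the largest negative one (Igfbp4), as the stretch from 250 bases before to 50 after the RefSeq start site (GRCm38.p6). Capitals mark a match to TGANTCA, the AP-1 pattern searched with any middle base, in Igf1 at chr10:87860861-87861160 on the plus strand. The matched letters are TGAATCA. Capitals also mark a TATA box (TATAAA) in Igfbp4 at chr11:99040994-99041293 on the plus strand. In Igfbp7, at chr5:77407996-77408295 on the minus strand, they mark 4 GC boxes (GGGCGG or its reverse complement).
Igf1: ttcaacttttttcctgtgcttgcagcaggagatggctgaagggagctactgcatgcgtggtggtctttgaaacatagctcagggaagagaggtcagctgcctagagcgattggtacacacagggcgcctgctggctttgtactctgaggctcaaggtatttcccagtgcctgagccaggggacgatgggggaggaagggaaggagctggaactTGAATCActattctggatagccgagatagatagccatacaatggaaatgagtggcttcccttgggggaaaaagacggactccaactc
Igfbp4: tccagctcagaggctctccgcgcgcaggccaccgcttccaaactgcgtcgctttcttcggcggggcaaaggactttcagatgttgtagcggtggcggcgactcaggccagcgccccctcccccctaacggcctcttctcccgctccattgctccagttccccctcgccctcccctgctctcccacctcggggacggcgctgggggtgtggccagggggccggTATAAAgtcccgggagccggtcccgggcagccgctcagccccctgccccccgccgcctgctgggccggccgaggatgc
Igfbp7: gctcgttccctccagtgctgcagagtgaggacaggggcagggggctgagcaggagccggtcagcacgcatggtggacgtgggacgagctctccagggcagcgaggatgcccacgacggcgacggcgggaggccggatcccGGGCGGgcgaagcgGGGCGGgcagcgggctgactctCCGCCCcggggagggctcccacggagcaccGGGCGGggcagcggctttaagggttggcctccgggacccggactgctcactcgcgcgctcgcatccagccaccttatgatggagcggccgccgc

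The Igf1 stretch held 52.3% G and C with 6 CpG, against 71.3% with 27 CpG in Igfbp4 and 73.3% with 33 CpG in Igfbp7. All 10 genes had at least 1 promoter in the RefSeq table, 14 promoters in all, which were searched on both strands for 6 motifs. The C/EBP-ATF composite element TGATGNAA, at which ATF4 and C/EBP family proteins bind together, was found in 0 of the 14 promoters and in 3.97% of all 32851, and the C/EBP motif TTGCNNAA in 0 of 14 and in 10.8% of all. The CRE half-site TGACG was found in 3 of 14 and in 20.8% of all, and the AP-1 pattern TGANTCA in 2 of 14 and in 7.81%. The TATA box was found in 2 of 14 and in 13.6%, and the GC box in 6 of 14 and in 35.7%. No match overlapped a match of another motif. A match or its lack describes only these letters within these windows.

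Igf1 encodes the ligand of IGF1R with the highest affinity for it. On probe set 1452014_a_at its signal was 199.6, 254, 185.7 and 149.7 on the CHOP-/- arrays with MG132 and 801.2, 751.9, 779.9 and 692.9 on the untreated CHOP-/- arrays. In WT cells it was 64.8, 29.0, 136 and 253.1 with MG132 and 30.9, 24.8, 16.2 and 40.0 without. Untreated CHOP-/- arrays thus stood above all others, treated CHOP-/- arrays came next and overlapped the treated WT arrays, and every untreated WT array lay below the array medians. Untreated CHOP-/- cells had 4.16 ± 0.36 (SE) more on the log2 scale than untreated WT cells (limma adjusted p = 4.33e-09). Because the WT signals are near the added 16, that size depends on the constant: it was 4.78 with 1 and 3.16 with 64 added.

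MG132 moved Igf1 in opposite directions in the 2 genotypes on this probe set. In CHOP-/- cells it fell by 1.88 ± 0.36 (limma adjusted p = 0.000126), 3.67-fold lower, with no overlap between treated and untreated arrays. In WT cells it rose by 1.36 ± 0.36 (limma adjusted p = 0.00249), although 1 treated array, at 29.0, lay inside the untreated range. The difference between the responses, CHOP-/- minus WT, was -3.23 ± 0.51 (limma adjusted p = 8.39e-05). The WT rise was lost without WT MG132 replicate 4, the array at 253.1: another Igf1 probe set became the brightest and the fold change was 0.03 (limma adjusted p = 0.921).

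The other 3 Igf1 probe sets repeated the fall but not the WT rise. In untreated CHOP-/- cells their signals spanned 653 to 1170.3 and with MG132 64.9 to 195, while no WT array exceeded 96.5 on any of them. In a fit of all probe sets without a filter, the fall in CHOP-/- cells passed on 4 of 4 Igf1 probe sets (-1.88 to -2.87) and so did the difference between the responses, whereas the rise in WT cells passed on 1 of 4, the others giving 0.38, 0.59 and -0.11. With MG132 in both genotypes, CHOP-/- cells were 0.93 ± 0.36 higher on the tested probe set (limma adjusted p = 0.0323) with overlapping arrays. That call was lost when WT MG132 replicate 1 or 2 or CHOP-/- MG132 replicate 1, 2 or 3 was left out (0.50 to 0.95, adjusted p 0.0508 to 0.164). In the fit without a filter, this difference between treated genotypes passed on 3 of 4 Igf1 probe sets (0.98 to 1.83). The tested probe set was the 1 that did not pass there (limma adjusted p = 0.0615). The treated arrays of the genotypes were apart on 1419519_at only.

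Igf2 encodes the imprinted fetal growth factor of the family. Its signal on 1448152_at was 947.1, 867.8, 683.6 and 897.3 in CHOP-/- cells with MG132 and 720.3, 797.5, 823.3 and 783.3 without. The signal in WT cells was 155.3, 218.4, 300.5 and 281.2 with MG132 and 166.5, 199.8, 111.9 and 135.2 without. The 8 CHOP-/- arrays lay above the 8 WT arrays, and within each genotype the treated and untreated arrays overlapped. Igf2 was 1.79 ± 0.18 higher in CHOP-/- cells with MG132 (limma adjusted p = 2.60e-08) and 2.26 ± 0.18 higher without (limma adjusted p = 8.41e-10). Igf2 rose with MG132 in WT cells (0.58 ± 0.18, limma adjusted p = 0.00697). In CHOP-/- cells the change was 0.11 ± 0.18 (95% interval -0.26 to 0.48, adjusted p = 0.611), and the difference between the responses, -0.47 ± 0.25, did not pass (limma adjusted p = 0.173). The second Igf2 probe set, 1415931_at, stayed between 2.38 and 48.4, below the array median on all 16 arrays, and passed no comparison; with the mean of both probe sets the WT rise was 0.26 and did not pass (limma adjusted p = 0.406), while the genotype difference passed at 1.08 with MG132 and 1.2 without (limma adjusted p = 0.00139 and 0.000593).

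Of the 2 receptors, the signalling receptor was lower and the clearance receptor higher in untreated CHOP-/- cells. Igf1r encodes the receptor tyrosine kinase through which both ligands act. Its signal on 1452982_at was 1033, 1091, 1058 and 958.0 in CHOP-/- cells with MG132 and 1723, 1771, 1564 and 1692 without. WT cells had 1475, 1669.9, 1523 and 1545 with MG132 and 3202, 2905, 2570.4 and 3233 without. Untreated WT arrays were the highest and treated CHOP-/- arrays the lowest; untreated CHOP-/- and treated WT arrays overlapped between them. It was lower in CHOP-/- cells, by a log2 difference of -0.58 ± 0.07 with MG132 and -0.81 ± 0.07 without (limma adjusted p = 7.42e-07 and 6.66e-09). It fell with MG132 in both genotypes (-0.70 ± 0.07 in CHOP-/- cells and -0.93 ± 0.07 in WT cells, limma adjusted p = 4.51e-08 and 5.66e-10), and the difference between these, 0.23 ± 0.10, did not pass (limma adjusted p = 0.0987).

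The Igf1r probe sets disagreed on the MG132 response of CHOP-/- cells. Without a filter, the fall in WT cells passed on 3 of 5 probe sets, but that in CHOP-/- cells on 1 of 5, the other 4 giving -0.05, -0.25, -0.16 and 0.37. The values -0.16 and 0.37 came from 1446303_at and 1452108_at, whose CHOP-/- signals lay near the array medians. In CHOP-/- cells 1446303_at averaged 102.0 with MG132 and 112.7 without, and 1452108_at 115.3 and 87.7. The lower signal of untreated CHOP-/- cells passed on 4 of 5. As the mean of its 5 probe sets, the CHOP-/- response was -0.16 (limma adjusted p = 0.207) and the WT response -0.46 (limma adjusted p = 0.000862).

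Igf2r encodes the mannose 6-phosphate receptor. On 1424112_at it was 2365, 2705, 2981 and 2581 in CHOP-/- cells with MG132 and 1995, 2207, 1984 and 2125 without. In WT cells it was 2602, 2415, 2587 and 2714 with MG132 and 1513, 1111, 1416 and 1255 without. Treated arrays of the 2 genotypes overlapped at the top, untreated CHOP-/- arrays came next, and untreated WT arrays were lowest, with no overlap between these steps. It rose with MG132 by 0.35 ± 0.08 in CHOP-/- cells and by 0.96 ± 0.08 in WT cells (limma adjusted p = 0.00105 and 2.89e-09), and these rises differed by -0.61 ± 0.12 (limma adjusted p = 0.000567). Untreated CHOP-/- cells were 0.65 ± 0.08 higher (limma adjusted p = 1.17e-06). With MG132 the genotypes differed by 0.04 ± 0.08 (95% interval -0.13 to 0.21, limma adjusted p = 0.715). On the second probe set, 1424111_at, the rise passed in WT cells (0.48) but not in CHOP-/- cells (0.32, limma adjusted p = 0.0592). Neither the untreated difference (-0.08, limma adjusted p = 0.722) nor the difference between the responses (-0.16) passed on it. As the mean of both probe sets, these were 0.29 and -0.39 and passed (limma adjusted p = 0.00773 and 0.0221). A further probe set that names Igf2r together with Airn was left out by the rule for members.

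The binding proteins split into 3 that were higher and 2 that were lower in CHOP-/- cells with and without MG132; Igfbp5 could not be placed. Igfbp7, also called IGFBP-rP1 and a product of fibroblasts and vessel walls, showed the widest gap. Its signal on 1423584_at was 3957, 4355, 4474 and 4479 in CHOP-/- cells with MG132 and 5717, 6762, 6191 and 6395 without. The WT arrays had 326.2, 409.5, 398.1 and 410.3 with MG132 and 293.8, 326.8, 308.8 and 305.9 without. All CHOP-/- arrays lay above all WT arrays, and treated and untreated arrays overlapped in WT cells only. CHOP-/- cells were 3.43 ± 0.08 higher with MG132 (10.8-fold) and 4.27 ± 0.08 higher without (19.3-fold; limma adjusted p = 1.26e-18 and 5.61e-20). With MG132, Igfbp7 fell by 0.54 ± 0.08 in CHOP-/- cells (limma adjusted p = 3.29e-06), while it rose by 0.30 ± 0.08 in WT cells (limma adjusted p = 0.0015). The difference between the responses was -0.84 ± 0.11 (limma adjusted p = 7.96e-06). Another probe set, 1423585_at, also passed for the untreated difference, with 173.2 to 223.1 on untreated CHOP-/- arrays against 32.3 to 49.5 on untreated WT arrays. The third, 1437804_at, was below the array median throughout. As the mean of all 3 probe sets, the responses to MG132 were -0.31 in CHOP-/- and 0.04 in WT cells, their difference was -0.35, and none of these passed (limma adjusted p = 0.102, 0.844 and 0.289). By that mean the genotype difference was smaller, at 1.62 with MG132 and 1.98 without, and passed (limma adjusted p = 7.54e-08 and 5.24e-09).

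Igfbp3 encodes the main carrier of IGFs in serum. On 1458268_s_at it was 333.5, 267.4, 161.8 and 189.6 in CHOP-/- cells with MG132 and 374.6, 337.5, 334.8 and 307.6 without. In WT cells it was 88.7, 60.0, 75.3 and 51.7 with MG132 and 38.0, 30.8, 14.4 and 11.7 without. Every WT array lay below the array medians and every CHOP-/- array above them, and treated and untreated arrays were apart in WT cells but overlapped in CHOP-/- cells. On the log2 scale it was 1.55 ± 0.25 higher in CHOP-/- cells with MG132 (limma adjusted p = 2.20e-05) and 3.21 ± 0.25 higher without (limma adjusted p = 9.53e-10). The untreated difference was 3.93 with 1 and 2.21 with 64 added to the signals.

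Igfbp3 rose with MG132 in WT cells (1.13 ± 0.25, limma adjusted p = 0.000522), and the responses of the genotypes differed by -1.66 ± 0.36 (limma adjusted p = 0.00147). The CHOP-/- response of -0.53 ± 0.25 missed the threshold (limma adjusted p = 0.0740). It passed without CHOP-/- MG132 replicate 1, the array at 333.5 (-0.70, adjusted p = 0.0280) and on the second probe set, 1423062_at (-1.0, adjusted p = 0.0345 without a filter). On that probe set the WT change, 0.58, did not pass.

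Igfbp2 encodes a binding protein abundant in fetal tissues. On its only probe set it was 248.6, 232.3, 263.0 and 315.7 in CHOP-/- cells with MG132 and 198.1, 200.8, 154.7 and 201.8 without. The signal in WT cells was 51.7, 88.7, 63.2 and 107.8 with MG132 and 53.8, 14.3, 106.7 and 108.5 without. CHOP-/- arrays lay above WT arrays throughout, and the WT groups overlapped each other. CHOP-/- cells were 1.61 ± 0.33 higher with MG132 and 1.44 ± 0.33 higher without (limma adjusted p = 0.00028 and 0.000946). The response to MG132 was 0.45 ± 0.33 in CHOP-/- cells, where the arrays did not overlap, and 0.28 ± 0.33 in WT cells, and neither passed (limma adjusted p = 0.243 and 0.484). With only the CHOP-/- groups fitted, the same 0.45 had an SE of 0.15 and passed (limma adjusted p = 0.0143).

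Igfbp4 encodes a binding protein best known for inhibiting IGF action and for its cleavage by PAPP-A. On 1437405_a_at it was 158.0, 170.2, 104.3 and 118.1 in CHOP-/- cells with MG132 and 191.9, 248.5, 249.3 and 184.2 without. WT cells had 1194, 1546, 1167 and 1342 with MG132 and 2039, 1797, 1342 and 1733 without. The CHOP-/- arrays lay far below the WT arrays; within WT cells the treated arrays, up to 1546, overlapped the untreated arrays, which started at 1342. Igfbp4 was lower in CHOP-/- cells, at -3.13 ± 0.15 with MG132 (8.73-fold lower) and -2.89 ± 0.15 without (7.42-fold lower; limma adjusted p = 4.76e-13 and 1.70e-12). The untreated difference passed on 6 of 6 Igfbp4 probe sets and that with MG132 on 5 of 6. Among the 6, 1421991_a_at stayed between 4.65 and 45.8, below the array median on all 16 arrays.

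With MG132, Igfbp4 fell by 0.62 ± 0.15 in CHOP-/- cells (limma adjusted p = 0.00133) and fell by 0.39 ± 0.15 in WT cells (limma adjusted p = 0.0318), without a passing difference between them (-0.23 ± 0.21, limma adjusted p = 0.455). The fall in WT cells was lost when WT MG132 replicate 1 or 3 or untreated WT replicate 1, 2 or 4 was left out (-0.30 to -0.38, adjusted p 0.0603 to 0.109). By probe set and without a filter, the fall passed on 3 of 6 in CHOP-/- cells and on 2 of 6 in WT cells. The low probe set 1421991_a_at was among those that passed in WT cells. The tested probe set, 1437405_a_at, did not pass there in that fit (-0.39, limma adjusted p = 0.0589). The suffixes of all 6 mark probe sets that several transcripts may share.

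Igfbp6 encodes the binding protein that prefers IGF2. Its only probe set gave 657.1, 694.8, 697.5 and 703.1 in CHOP-/- cells with MG132 and 989.7, 1005, 920.9 and 912.9 without. In WT cells it was 2013, 1966, 1959.7 and 1819.6 with MG132 and 1721, 2124, 1954 and 1953 without. The CHOP-/- arrays formed 2 separate steps below the WT arrays, whose treated and untreated groups overlapped. It was lower in CHOP-/- cells, with differences of -1.47 ± 0.07 with MG132 and -1.0 ± 0.07 without (limma adjusted p = 1.60e-13 and 7.49e-11). Igfbp6 fell by 0.47 ± 0.07 with MG132 in CHOP-/- cells (limma adjusted p = 3.99e-06), against 0.00 ± 0.07 in WT cells (95% interval -0.14 to 0.14, adjusted p = 0.964), and the responses differed by -0.47 ± 0.09 (limma adjusted p = 0.000848).

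Igfbp5, a binding protein of bone and muscle matrix, was 73.4, 89.2, 82.1 and 69.5 in CHOP-/- cells with MG132 and 61.5, 57.2, 94.8 and 48.8 without on its brighter probe set. The WT arrays had 76.9, 100.8, 45.5 and 41.6 with MG132 and 92.0, 132.9, 88.9 and 64.1 without. The 4 groups overlapped. It lay above the array median on 3 of 16 arrays and was not tested with the other genes, and in the fit without a filter neither of its 2 probe sets passed any comparison. Igfbp2 and Igfbp5 are neighbours on chromosome 1, and Igfbp3 lies next to Igfbp1 on chromosome 11. Igfbp1, the binding protein of liver, was below the array median on all 16 arrays, with group means of 3.06 to 12.2.

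**Figure D3:**
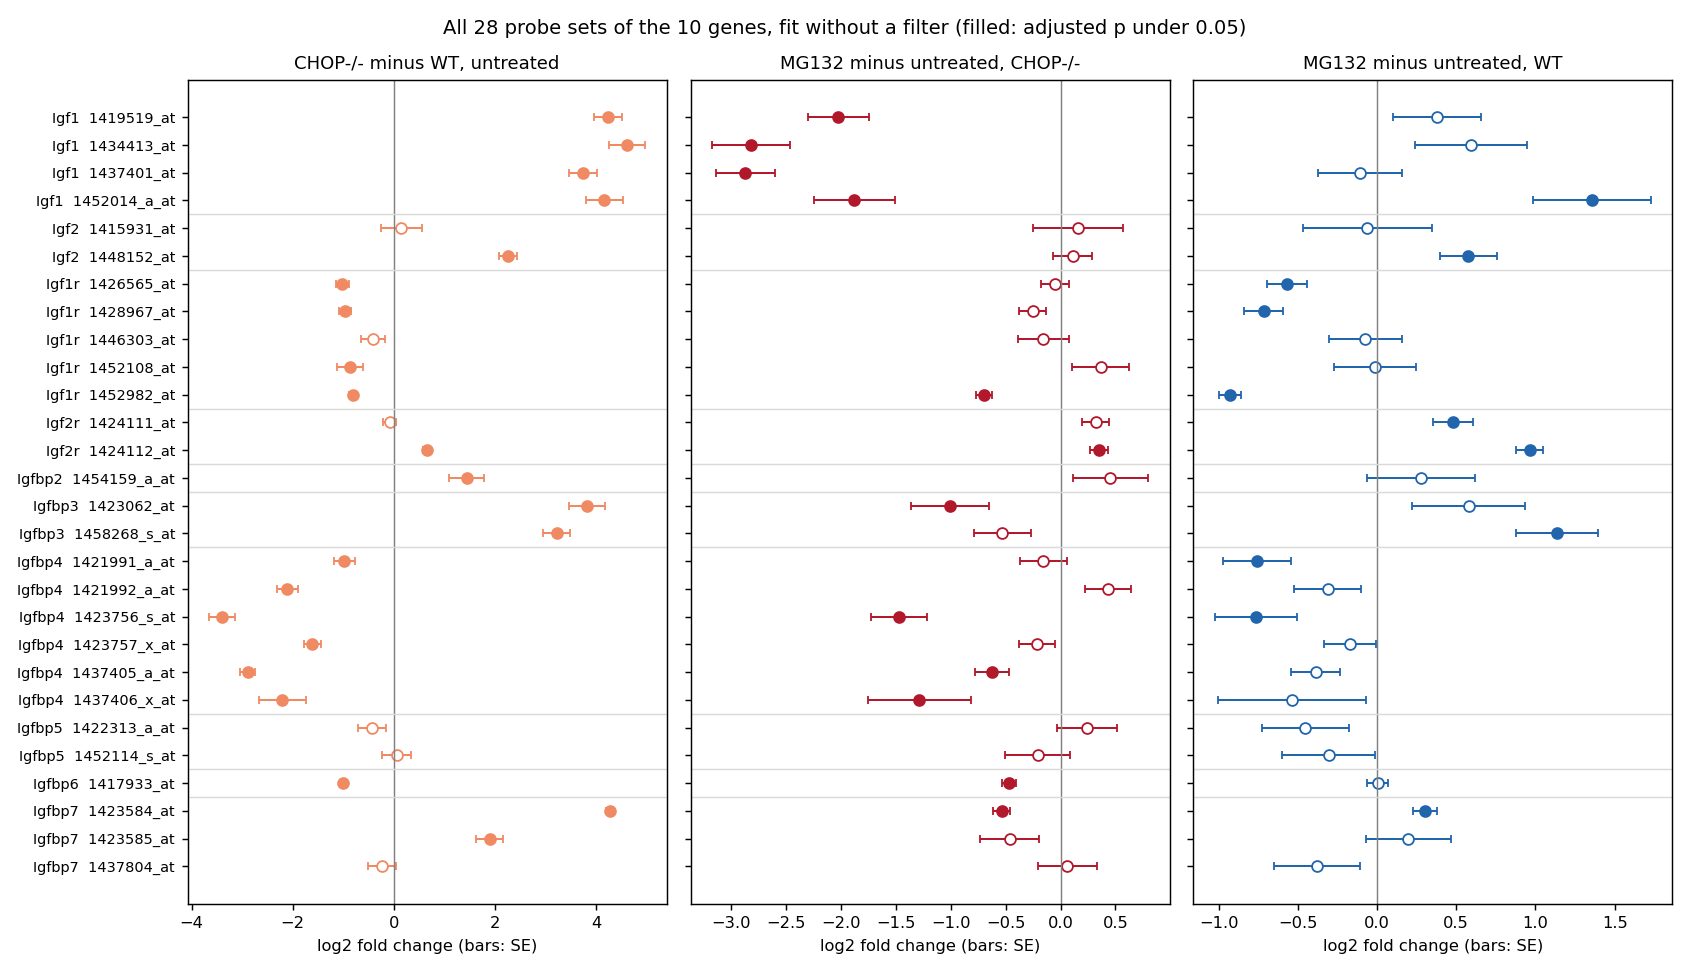
Log2 fold change with its SE for each of the 28 probe sets of the 10 genes (rows), from a limma fit of all single-gene probe sets without a filter, for 3 of the comparisons; filled points have an adjusted p under 0.05. The Igf1 sets move together in untreated cells (3.74 to 4.61) and in the CHOP-/- response, but only 1452014_a_at passes in the WT response.

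Per class, the gene with the widest range of group means was set against all other tested genes over the 16 arrays, which fall into 4 groups. Genes picked this way share the group pattern by choice, so their like changes below are a description and no further result. Igf1 was most like Sort1 (Pearson r = 0.948), Trav9d-3 (0.944) and 2210408K08Rik (0.940). Igf1r was most like Fancb (0.989), Ahnak2 (0.986) and Ctdspl (0.985), which also fell with MG132 in both genotypes (-0.49, -1.48 and -0.93 in CHOP-/- cells, -0.72, -1.83 and -1.58 in WT cells). Igfbp7 was most like Thy1 (0.998), a surface protein of fibroblasts, Tspan6 (0.997) and Crabp1 (0.995), which were 3.50, 3.19 and 6.54 higher in untreated CHOP-/- cells.

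Genes around the IGF system were read from 6 lists. Their counts stand beside shares over all tested genes, of which 28.6% were higher and 26.9% lower in untreated CHOP-/- cells. With MG132, 25.7% of all tested genes rose and 36.7% fell in CHOP-/- cells, and 27.2% rose and 36.9% fell in WT cells. Of 13 genes for proteases that cut IGF-binding proteins and for their inhibitors, 8 were tested; 4 were higher and 1 lower in untreated CHOP-/- cells. Stc2, stanniocalcin-2, an inhibitor of PAPP-A and an ATF4-linked stress gene, averaged 826 ± 149 with MG132 and 538 ± 57.6 without in CHOP-/- cells, against 431 ± 39.1 with MG132 and 107 ± 5.44 without in WT cells (SD, n = 4 each). It rose less with MG132 in CHOP-/- than in WT cells (0.59 against 1.86, difference -1.27 ± 0.17, limma adjusted p = 1.51e-05) and was 2.17 ± 0.12 higher in untreated CHOP-/- cells. Htra1, a secreted serine protease, averaged 2843 with MG132 and 4666 without in CHOP-/- cells, against 7070 and 4837 in WT cells, a difference between responses of -1.26 ± 0.08 (limma adjusted p = 9.55e-10). Plat, tissue plasminogen activator, was 1.73 ± 0.06 higher in untreated CHOP-/- cells (limma adjusted p = 6.04e-15). Pappa, the protease that cuts IGFBP4, fell with MG132 in CHOP-/- cells (-0.57, limma adjusted p = 0.0466) and passed no other comparison. The list moved with MG132 as 2 higher and 4 lower in CHOP-/- cells and as 4 higher and 3 lower in WT cells.

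Of 38 genes of insulin and IGF signal transduction, 29 were tested: 8 were higher and 14 lower in untreated CHOP-/- cells (median -0.08), 8 rose and 10 fell with MG132 in CHOP-/- cells, and 8 rose and 16 fell in WT cells. Insr, the insulin receptor, passed no comparison. The docking proteins differed: Irs1 averaged 3264 with MG132 and 5047 without in CHOP-/- cells, against 5136 and 5709 in WT cells, with responses of -0.63 in CHOP-/- cells and -0.15 in WT cells and a difference of -0.48 (limma adjusted p = 0.000588). Irs2 averaged 344 with MG132 and 424 without in CHOP-/- cells, against 301 and 637 in WT cells; it fell by 1.07 in WT cells, did not pass in CHOP-/- cells (-0.31), and the difference was 0.76 (limma adjusted p = 0.0275). Akt1, a kinase below PI3K, fell with MG132 (-0.88 ± 0.08 in CHOP-/- cells and -1.2 ± 0.08 in WT cells). Foxo1, a transcription factor held back by AKT, was lower in CHOP-/- cells (-1.32 ± 0.09 with MG132 and -1.29 ± 0.09 without), and Foxo3 rose by 1.33 ± 0.09 with MG132 in CHOP-/- cells. Socs2, an inhibitor of growth hormone signalling, averaged 517 and 689 in treated and untreated CHOP-/- cells, against 693 and 267 in treated and untreated WT cells, a difference between the responses of -1.73 ± 0.12 (limma adjusted p = 4.32e-09).

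The list named stress-induced inhibitors of AKT and mTOR was tested in full, 9 of 9, and its name is not a result of these data. With MG132, 3 rose and 4 fell in CHOP-/- cells and 5 rose and 3 fell in WT cells. Trib3, a pseudokinase that binds AKT, rose by 2.15 ± 0.07 in CHOP-/- cells and by 2.29 ± 0.07 in WT cells, and the difference of -0.14 did not pass (limma adjusted p = 0.336). Ddit4 (REDD1), an inhibitor of mTORC1, averaged 10617 ± 270 with MG132 and 2935 ± 51.4 without in CHOP-/- cells, against 2482 ± 120 and 1210 ± 142 in WT cells, so its response was 0.82 ± 0.09 larger in CHOP-/- cells (limma adjusted p = 1.77e-06). Trib2 was lower in CHOP-/- cells, at -2.04 ± 0.13 with MG132 and -2.62 ± 0.13 without. It also fell with MG132 (-1.44 ± 0.13 in CHOP-/- cells and -2.03 ± 0.13 in WT cells), and the responses differed by 0.58 ± 0.19 (limma adjusted p = 0.0255).

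The CCN family, matricellular proteins with an IGFBP-like domain, had 5 of 6 genes tested, 2 higher and 3 lower in untreated CHOP-/- cells. Ccn3 averaged 602 with MG132 and 433 without in CHOP-/- cells, against 16010 and 7874 in WT cells, and Ccn5 230.3 and 454 against 1049 and 2920. Ccn4 was 1.49 ± 0.09 higher in untreated CHOP-/- cells. Of the 7 genes of mannose 6-phosphate receptor traffic, 2 were higher and 1 lower in untreated CHOP-/- cells; Sort1, sortilin, was 2.14 ± 0.16 higher, and Gga2, an adaptor for receptor sorting, rose with MG132 by 1.1 ± 0.05 in CHOP-/- and by 0.93 ± 0.05 in WT cells. Of 12 other genes of the IGF system, such as the acid-labile subunit, the IGF2 mRNA-binding proteins and the insulin genes, 3 were tested. Igf2bp3, which binds IGF2 mRNA, averaged 3044 with MG132 and 3980 without in CHOP-/- cells, against 351 and 519 in WT cells, and was higher in CHOP-/- cells by 3.08 ± 0.11 with MG132 and 2.90 ± 0.11 without. The shares of each list that passed stand beside backgrounds of 55.4% for the untreated genotype difference, 62.4% for the CHOP-/- response and 64% for the WT response.

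**Figure D4:**
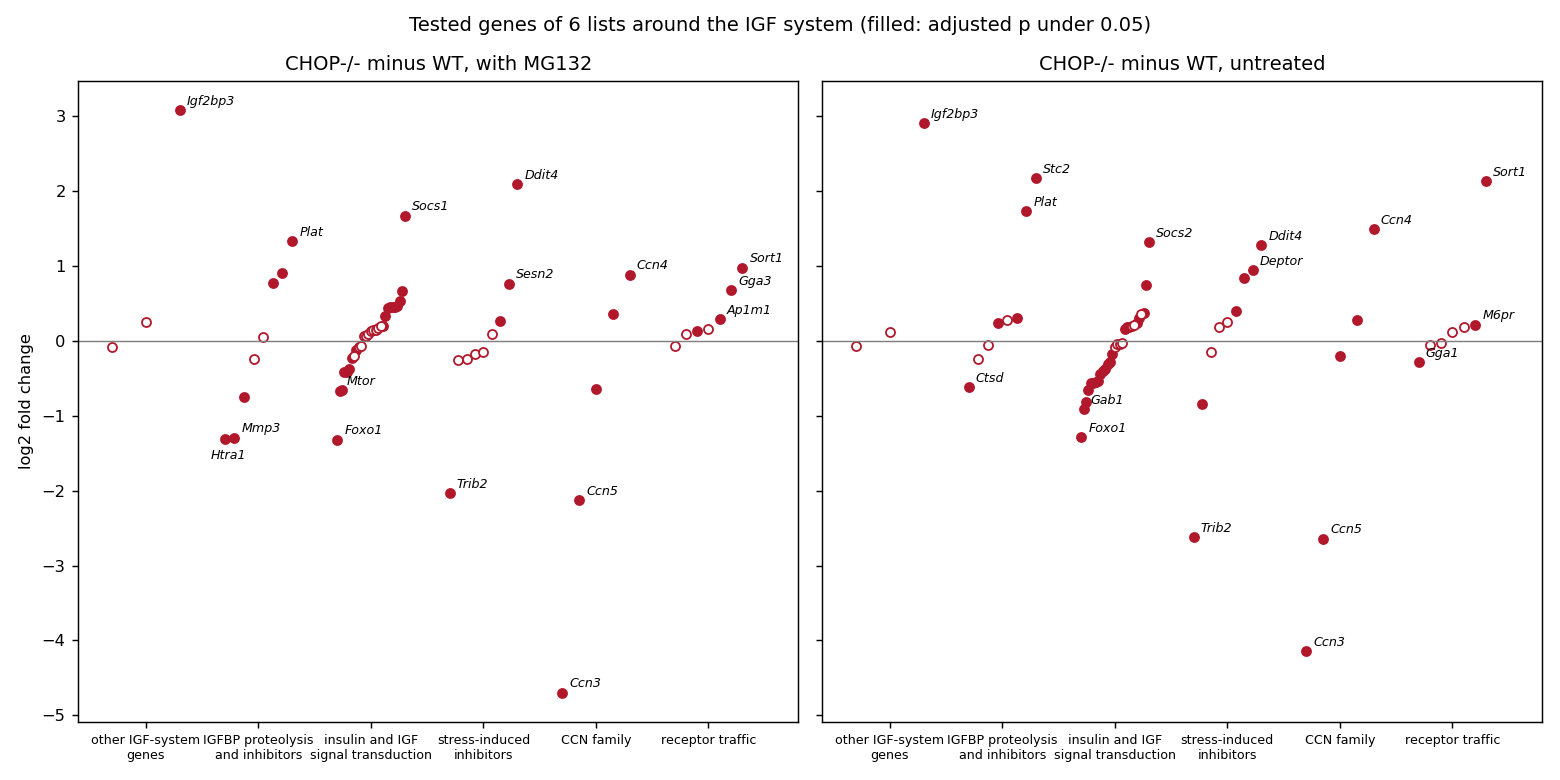
Log2 fold change, CHOP-/- minus WT, of each tested gene of the 6 lists (x axis), with MG132 on the left and untreated on the right; filled points have an adjusted p under 0.05, and up to 3 genes per list are named. Most genes of signal transduction lie within 1 of 0, while Igf2bp3 (3.08 and 2.90), Ccn3 (-4.70 and -4.14) and Trib2 (-2.04 and -2.62) lie far out on both sides of the treatment.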

How the data were processed

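Total RNA of 16 plates was labelled with biotin and hybridised to Affymetrix arrays, and the authors deposited 1 intensity per probe set and array, made with MAS5 per the submitters' processing notes; for its version and settings, the sources used here give nothing. Across arrays, the 16 deposited intensity columns had a mean of 1000 after trimming 2% at each end, so the arrays had been scaled to a common level. Neither detection calls nor scan records were used here, and the number of arrays limits the precision. Probe sets were named from the platform annotation: of 45101, 64 were controls, 9160 named no gene, 932 named several and 34945 named 1, of which 34741 matched RefSeq by gene ID with 0 symbols changed.

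Signals were taken as log2(signal + 16) without further normalisation. For a gene the single-gene probe set of highest mean stood, kept if above the array median on at least 4 arrays (11443 genes). Linear models with 1 coefficient per group were fitted in limma 3.58.1 (R 4.3.3) with a mean-variance trend (12 residual and 7.666 prior degrees of freedom), and 5 two-sided contrasts were adjusted by Benjamini-Hochberg over all tested genes at 0.05. A second fit took all single-gene probe sets without a filter. The fit was also run on simulated gene values with independent normal noise. Known changes were added in untreated CHOP-/- cells, in far fewer genes than passed here. That run says nothing about probe sets that disagree.

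The genes, the lists and the rules were chosen with earlier results of these data known. Named were the 10 genes, Ddit3, Igfbp1, Insr, Irs1, Irs2, Pappa, Stc2, Trib3 and Ddit4, up to 3 passing genes of each list and contrast with the largest fold change, and the 3 genes most correlated with the widest-ranging gene per class; not each of these is printed. Promoters came from a RefSeq table of GRCm38.p6. Alternatives changed the pseudocount, normalisation, filter, probe set rule, variance model, the arrays fitted and a replicate block, or left out each array in turn.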

Additional observations from a re-analysis of the deposited data

Results flagged for a closer look

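2 arrays stood apart from the other 3 of their group by Dixon's criterion, among 40 groups of 4 tested, where chance gives about 1 in 20. Igfbp2 was 154.7 on CHOP-/- untreated replicate 3, against 198.1 to 201.8 on the other arrays of that group. Igfbp7 on 1423584_at was 326.2 on WT MG132 replicate 1, against 398.1 to 410.3 on the others.

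The response to MG132 differed between the genotypes, CHOP-/- minus WT, by a tested interaction (limma, BH over all tested genes) in 5 genes. The difference was -3.23 for Igf1 (adjusted p = 8.39e-05), -1.66 for Igfbp3 (adjusted p = 0.00147), -0.84 for Igfbp7 (adjusted p = 7.96e-06), -0.61 for Igf2r (adjusted p = 0.000567) and -0.47 for Igfbp6 (adjusted p = 0.000848). On the scale of all tested genes, 28.3% passed this comparison.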

How the results depend on the processing

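Under the alternatives tried, 1196 recomputed fold changes of single genes kept their direction and their side of the threshold, 23 kept the direction and lost the call, 11 gained one and 11 changed sign; the causes were not tested. For the untreated genotype difference, 6 genes higher and 3 lower came out with each array left out and under each alternative but that without suffixed probe sets, where 7 genes were tested and 5 were higher and 2 lower. For WT cells the count of genes that rose was 3 instead of 5 as the mean of all probe sets and also without suffixed probe sets, and 4 to 5 with an array left out; that of genes that fell was 1 instead of 2 under quantile normalisation, no filter, no suffixed probe sets and centring on the tested genes, and 1 to 2 with an array left out. For CHOP-/- cells the count that rose was 2 instead of 1 with only the compared groups fitted (1 to 1 with an array left out), and that of falls was 5 to 6 with an array left out, 4 as the mean of all probe sets (Igf1r and Igfbp7 lost, Igfbp3 gained) and 6 with 64 added or only the compared groups fitted. The difference between the responses had 1 gene higher instead of 0 under quantile normalisation (Igf1r, 0.26) and 0 to 1 higher and 5 to 6 lower with an array left out, and 4 lower as the mean of all probe sets. With MG132, 4 to 5 genes were higher and 3 lower with an array left out, and 4 higher and 2 lower without suffixed probe sets. Igf1 (0.93) also lost its call there with no filter, no variance trend or only the compared groups fitted (limma adjusted p = 0.0556, 0.0584 and 0.0683).

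Signs changed without a call for Igf1 in WT cells without suffixed probe sets (-0.11), Igfbp6 in WT cells with median centring (-0.046) and Igf2r between treated genotypes as the mean of its probe sets (-0.10). With 1 array left out, they changed for Igfbp6 in WT cells (range -0.0515 to 0.0488), Igfbp2 in WT cells (-0.16 to 0.52), the Igfbp2 difference between responses (-0.064 to 0.62) and Igf2r between treated genotypes (-0.0175 to 0.0932). Without suffixed probe sets, Igfbp2 and Igfbp4 have no value.

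Centring on the tested genes was chosen after seeing the data. The median of all genes moved by 0.14 in CHOP-/- and by 0.20 in WT cells, after which 55.7% of calls in CHOP-/- cells were higher (41.2% as reported) and 61.6% in WT cells (42.4%); Igfbp6 then rose in WT cells (0.21, limma adjusted p = 0.0174), and the Igfbp4 fall there (-0.18) did not pass. For the difference between responses the share of higher calls was 50.1%, 69.7% with median centring and 38.3% with centring on the tested genes, and between treated genotypes 52.2% and 63.5% with median centring.

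Deviations of arrays with the same replicate number correlated at -0.068 to 0.16 over 24 pairs (median 0.036), 5 of them over 0.1. For arrays with different numbers this was -0.168 to 0.127 over 72 pairs (median -0.017), 5 of them over 0.1. Whether the numbers pair the samples was not tested. With the number as a block, 6 genes instead of 5 fell in CHOP-/- cells, as Igfbp3 then passed (-0.53, limma adjusted p = 0.0331), and the other counts were the same. Signals near or below the array medians, as those of Igf1, Igfbp2 and Igfbp3 in WT cells and of Igfbp5, limit what can be said of their changes.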
